A study of Mus musculus with 6 samples.

Results

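Hspa1a and Hspa1b, the stress-inducible HSP70 genes of the mouse, were followed with 8 other heat shock chaperone genes (Hspa1l, Hspa8, Hsph1, Dnajb1, Hsp90aa1, Hspb1, Hspe1 and Bag3) in RNA from whole hearts. The members are 10 of the 25901 rows of the expression table, found by gene symbol, and each of the 10 symbols had 1 row. They were picked with values of these hearts in view, so their levels and differences are a description without a test. The data are from 3 wild-type hearts (WT2368, WT2379 and WT2378) and 3 hearts named SRAKO (SRAKO2365, SRAKO2371 and SRAKO2372). All 6 samples came from mice given isoproterenol, a beta-adrenergic agonist that makes the heart grow, for 4 weeks. SRA is the steroid receptor RNA activator made from the gene Sra1, and the question of the study is what its loss changes in the stimulated heart. The labels do not describe the SRAKO allele, strain, sex or age. They also do not say outright that each library is a separate animal, so p-values weigh group differences against the spread between these samples. Untreated hearts were not analysed here, so a response to isoproterenol cannot be read from these values.

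Heat shock proteins bind unfolded stretches of other proteins and help them fold or be degraded. HSP70 proteins hold a client in a cycle driven by ATP, in which J-domain proteins such as the Dnajb1 product deliver the client and nucleotide exchange factors such as the Hsph1 and Bag3 products release it. HSP90 takes over maturing clients from HSP70, and small heat shock proteins such as HSPB1 hold unfolded proteins in solution. In a cell under proteotoxic stress the transcription factor HSF1 binds heat shock elements, inverted repeats of GAA in promoters, and Hspa1a and Hspa1b are among its most strongly induced targets. In cardiac muscle BAG3 and its small heat shock partners serve the turnover of sarcomere proteins.

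The upstream sequences of Hspa1a and Hspa1b are shown because the pair was high or low together in every heart and because they show how alike the pair is. Each is the 250 bases before the start of transcription, 5′ to 3′ on the minus strand, from RefSeq on GRCm38.p6, at chr17:34972157-34972406 for Hspa1a and chr17:34959239-34959488 for Hspa1b. The first capitals mark GAANNTTC, a pair of heat shock units, and the second mark ATTGG, the reverse complement of CCAAT.
Hspa1a: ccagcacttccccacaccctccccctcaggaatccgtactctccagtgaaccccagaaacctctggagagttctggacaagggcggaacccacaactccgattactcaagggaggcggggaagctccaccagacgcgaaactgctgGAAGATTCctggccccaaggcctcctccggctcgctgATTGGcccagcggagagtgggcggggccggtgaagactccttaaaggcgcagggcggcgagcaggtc
Hspa1b: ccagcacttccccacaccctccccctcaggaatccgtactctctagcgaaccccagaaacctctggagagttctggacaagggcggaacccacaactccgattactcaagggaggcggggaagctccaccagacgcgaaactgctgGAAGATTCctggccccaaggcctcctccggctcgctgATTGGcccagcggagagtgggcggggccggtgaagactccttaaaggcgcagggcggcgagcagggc
Of the 250 positions 247 were identical (98.8%). The 3 differences were C44T, T47C and T249G, with the Hspa1a base first and positions counted from 1 at the printed 5′ end. In both genes GAANNTTC began at position -104 from the start and ATTGG at -67.

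The upstream sequence of Hspe1 (chr1:55088028-55088147, plus strand), which encodes the mitochondrial co-chaperonin HSP10, is shown as the contrast. Of the members with a RefSeq promoter it alone had 3 exact heat shock units in a row before the start. Its highest heart was 1.27 times its lowest. The capitals mark overlapping matches to 3 heat shock units in a row, meaning GAANNTTC or TTCNNGAA carried on by a further unit of the other orientation after NN.
Hspe1: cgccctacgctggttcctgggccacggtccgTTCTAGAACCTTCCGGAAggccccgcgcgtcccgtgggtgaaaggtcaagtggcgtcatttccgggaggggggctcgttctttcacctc
RefSeq promoters, 250 bases before to 50 after each start, were found for 8 of the 10 members, the exceptions being Hsp90aa1 and Hspa8. On either strand, 3 heat shock units in a row were present in 2 of the 8, Hspe1 and Hsph1, against 0.603% of all 32851 promoters of that length. The shorter GAANNTTC was present in 6 of the 8 against 7.86% of all promoters, and TTCNNGAA, which the longer motifs also contain, in 2 of the 8 against 8.52%. CCAAT was found in 5 of the 8 (37.4% of all promoters) and TATAAA in 0 (13.6% of all promoters). Only exact matches were counted, so imperfect heat shock units, in Hspa1a and Hspa1b or elsewhere, would be missed. A match describes the letters of the window and is not evidence of binding.

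Hspa1a and Hspa1b were high in WT2368 and WT2379 and low in the other 4 hearts, among them the remaining WT heart. Both encode nearly the same inducible HSP70 protein. Hspa1a had an FPKM (sequenced fragments scaled by transcript length and by library size) of 14.5, 13.9 and 2.37 in WT2368, WT2379 and WT2378, and of 1.49, 2.13 and 1.37 in SRAKO2365, SRAKO2371 and SRAKO2372. Hspa1b had 16.0, 13.5 and 2.08 in the same WT hearts and 1.56, 1.67 and 1.70 in the SRAKO hearts. The groups did not overlap for either gene, but WT2378 lay far closer to the SRAKO hearts than to the other WT hearts. Against the SRAKO mean, Hspa1a was 8.72 times as high in WT2368, 8.33 times in WT2379 and 1.42 times in WT2378. For Hspa1b these ratios were 9.73, 8.24 and 1.27.

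No WT heart lay near the WT mean of either gene. Hspa1a averaged an FPKM of 10.3 ± 6.84 in WT hearts and 1.66 ± 0.408 in SRAKO hearts (SD, n = 3 each), the latter 16.2% of WT. For Hspa1b the means were 10.5 ± 7.42 and 1.64 ± 0.0766, 15.6% of WT. The SRAKO minus WT difference of log2(FPKM + 1), a scale on which changes of weak genes look smaller than they are, was -1.80 (SE 0.54) for Hspa1a and -1.79 (SE 0.57) for Hspa1b. These were the most negative and the next most negative differences of the 10201 rows tested, those that reached an FPKM of 1 in 3 or more hearts. The difference depended on which WT heart was counted: without WT2378 it was -2.52 for Hspa1a and -2.57 for Hspa1b, and without WT2368 it was -1.42 and -1.34.

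The high level in WT2368 and WT2379 together was rare in the table. Among the 10201 rows, 2 had both of these hearts at least 4-fold above each of the other 4, and they were Hspa1a and Hspa1b. The 2 hearts and the cutoff of 4-fold were chosen after the values of this pair were seen, so the count is a description and tests nothing. In those hearts the pair summed to 19.6% and 13.6% of the FPKM of Hspa8, the constitutive cytosolic HSP70. In WT2378 the sum was 2.70% of Hspa8, and in the SRAKO hearts it was 1.93%, 1.98% and 1.83%. The pair was weaker than each of the other 8 members in WT2378 and in the 3 SRAKO hearts, while in WT2368 and in WT2379 it stood above 3 of them.

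**Figure D1:**
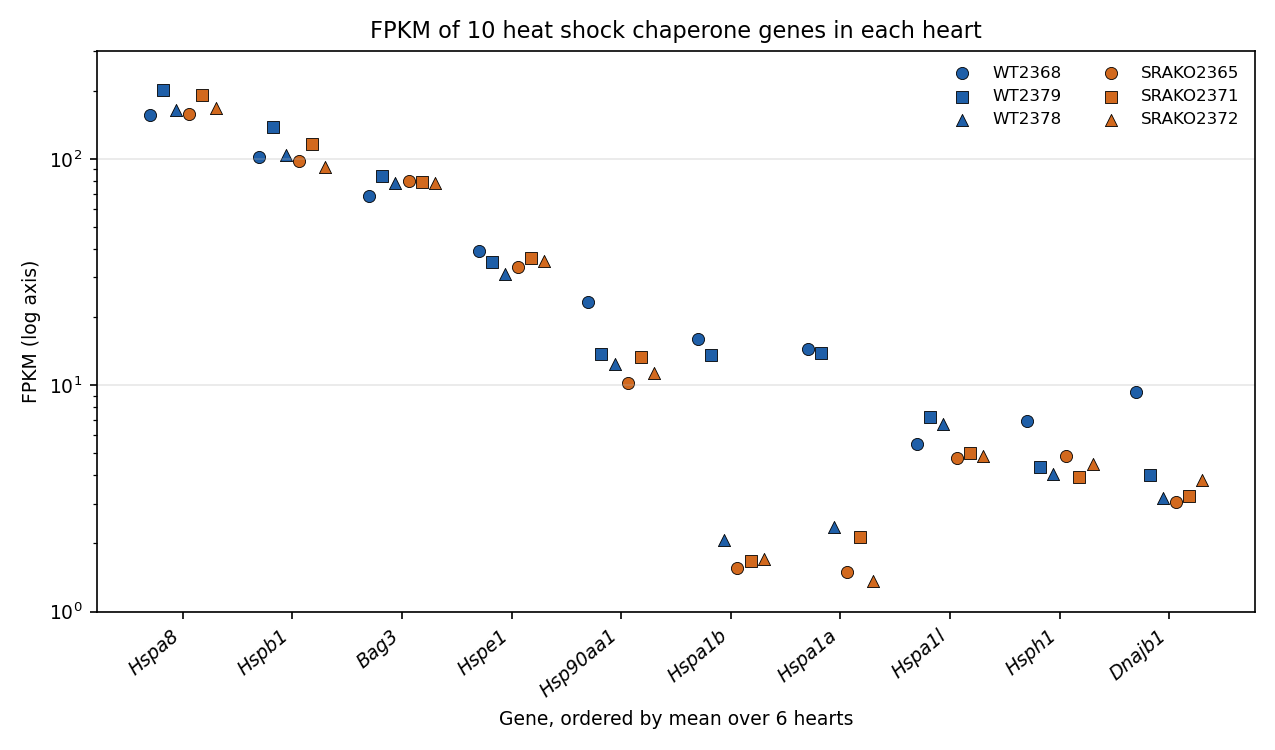
FPKM of each of the 10 genes (log axis) in the 3 WT hearts (blue) and 3 SRAKO hearts (orange), 1 point per heart, with genes ordered by their mean over 6 hearts. Hspa1a and Hspa1b fall into a high pair of WT hearts at 13.5 to 16.0 and a low set of 4 hearts at 1.37 to 2.37, while Hspa8, Bag3 and Hspe1 vary little.

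Hspa1a and Hspa1b can share reads, so their separate values are less certain than their sum. They are single-exon genes on the minus strand of chromosome 17 of GRCm38, Hspa1a from 34969190 to 34972156 and Hspa1b from 34956436 to 34959238, with starts 12918 bases apart. Their transcripts of 2967 and 2803 bases were identical at 91.4% of 2729 aligned positions. Of all windows of 100 bases in Hspa1a, 47.1% occurred unchanged in Hspa1b, and 49.9% the other way. The ratio of Hspa1a to Hspa1b lay between 0.806 and 1.28 over the 6 hearts, at 0.909, 1.02 and 1.14 in WT2368, WT2379 and WT2378. Either gene alone thus gave the same division of the hearts. How reads that match both genes were assigned is not given in the sources used here.

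By an estimate of depth, the low values rested on about 100 fragments a gene rather than a handful. The deposited values give no counts. In each heart the commonest product of FPKM and transcript length was shared by 203 to 229 rows with a single transcript. Read as 1 fragment, the commonest value means that an FPKM of 1 stood for 14.6 fragments per kilobase in WT2368 and for 17.8 to 23.1 in the other hearts. On this reading Hspa1a had about 629, 852 and 125 fragments in WT2368, WT2379 and WT2378, and 97.4, 121 and 93.9 in SRAKO2365, SRAKO2371 and SRAKO2372. The heart with the highest Hspa1b level was thus also the one with the lowest depth.

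Hspa1l, whose product is a constitutive HSP70 best known from the testis, was somewhat lower in SRAKO and did not follow its neighbours. It lies next to Hspa1a in the opposite orientation (chromosome 17, 34972703 to 34979285, plus strand, 2 exons), with starts 547 bases apart. Its FPKM was 5.51, 7.25 and 6.74 in WT2368, WT2379 and WT2378, and 4.77, 5.02 and 4.88 in SRAKO2365, SRAKO2371 and SRAKO2372. The groups did not overlap, but WT2378, low for Hspa1a, was high for Hspa1l, and WT2368 had the lowest WT value. Means were 6.50 ± 0.897 and 4.89 ± 0.125 (SD, n = 3 each), 75.3% of WT, a log2 difference of -0.34 (SE 0.11). Its transcript shares less with the pair, with 5.65% of its windows of 100 bases present unchanged in Hspa1a and 3.75% in Hspa1b.

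Hspa8, the constitutive HSC70 that carries most of the routine HSP70 work of the cytosol, was the most abundant member and had nearly equal means in both groups. FPKM was 155, 201 and 164 in WT2368, WT2379 and WT2378, and 158, 192 and 168 in SRAKO2365, SRAKO2371 and SRAKO2372. The WT mean was 174 ± 24.2 and the SRAKO mean 173 ± 17.6 (SD, n = 3 each). The highest heart of each group stood above the rest, and the groups overlapped throughout. Its row (chromosome 9, 40800984 to 40810087, plus strand) also carries small nucleolar RNAs hosted in the introns of Hspa8, so the value may include their reads.

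The J-domain partner Dnajb1 was high in a single heart. Its product, HSP40, stimulates HSP70 and is itself a target of HSF1. FPKM was 9.35 in WT2368, against 4.03 and 3.16 in WT2379 and WT2378 and 3.05, 3.25 and 3.81 in SRAKO2365, SRAKO2371 and SRAKO2372. WT2368 was 2.32 times the next heart, and the other WT hearts lay within or just above the SRAKO range. Means were 5.51 ± 3.35 and 3.37 ± 0.395 (SD, n = 3 each), a log2 difference of -0.46 (SE 0.30) that became -0.07 without WT2368. WT2379, as high as WT2368 for Hspa1a, was thus not high for Dnajb1. The gene spans 83608193 to 83612653 of chromosome 8 (plus strand).

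Hsph1, which encodes the nucleotide exchange factor HSP110, had the same shape on a smaller scale. FPKM was 6.94, 4.36 and 4.06 in WT2368, WT2379 and WT2378, and 4.86, 3.93 and 4.49 in SRAKO2365, SRAKO2371 and SRAKO2372. WT2379 and WT2378 lay within the SRAKO range. The means of 5.12 ± 1.59 and 4.42 ± 0.468 (SD, n = 3 each) differed by -0.15 on the log2 scale (SE 0.18), and without WT2368 the sign turned, to 0.06. Hsph1 spans 149614287 to 149636376 of chromosome 5 (minus strand), and its match to 3 heat shock units lay downstream of the start, beginning at position 37 or 16 depending on which of its RefSeq starts is used.

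Bag3, the exchange factor that couples HSP70 to autophagy in muscle, was the steadiest member. FPKM was 68.7, 83.8 and 77.8 in WT2368, WT2379 and WT2378, and 79.4, 79.2 and 77.9 in SRAKO2365, SRAKO2371 and SRAKO2372. Its highest heart was 1.22 times its lowest, and WT2368, the highest heart for Dnajb1, was the lowest for Bag3. Means were 76.7 ± 7.62 and 78.8 ± 0.806 (SD, n = 3 each), a log2 difference of 0.04 (SE 0.11). Bag3 spans 128523616 to 128546981 of chromosome 7 (plus strand).

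Hsp90aa1, the inducible cytosolic HSP90, resembled Dnajb1. FPKM was 23.3, 13.8 and 12.4 in WT2368, WT2379 and WT2378, and 10.2, 13.4 and 11.3 in SRAKO2365, SRAKO2371 and SRAKO2372. WT2368 was 1.69 times the next heart, WT2379 lay just above the highest SRAKO heart, and WT2378 lay within the SRAKO range. Means were 16.5 ± 5.95 and 11.6 ± 1.59 (SD, n = 3 each), a log2 difference of -0.42 (SE 0.22) that shrank to -0.16 without WT2368. Its constitutive relative Hsp90ab1 was level, at 256 ± 13.4 in WT and 256 ± 7.71 in SRAKO. Hsp90aa1 spans 110690605 to 110696395 of chromosome 12 (minus strand).

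Hspb1, the small heat shock protein HSP25, and Hspe1 did not separate the groups. Hspb1 (chromosome 5, 135887919 to 135889563, plus strand) had an FPKM of 101, 139 and 104 in WT2368, WT2379 and WT2378 and of 98.2, 117 and 92.2 in SRAKO2365, SRAKO2371 and SRAKO2372. WT2379 and SRAKO2371 were the highest of their groups, and the groups overlapped. The means of 115 ± 20.8 and 102 ± 12.7 (SD, n = 3 each) differed by -0.15 (SE 0.16) on the log2 scale. A pseudogene, Hsp25-ps1, had an FPKM between 39.5 and 55.7 in the 6 hearts, and reads may be divided between it and Hspb1. Hspe1 (chromosome 1, 55088132 to 55091307, plus strand) had 39.1, 35.1 and 30.9 in WT and 33.3, 36.4 and 35.4 in SRAKO, in the same order of hearts. Its means were 35.0 ± 4.10 and 35.1 ± 1.61 (SD, n = 3 each), a log2 difference of 0.01 (SE 0.12).

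By mean FPKM over the 6 hearts the order was Hspa8 (173), Hspb1 (108), Bag3 (77.8), Hspe1 (35.0), Hsp90aa1 (14.1), Hspa1b (6.09), Hspa1a (5.96), Hspa1l (5.70), Hsph1 (4.77) and Dnajb1 (4.44). From Hspa8 down to Hsp90aa1 the ranges over hearts of neighbours in this order did not overlap. From Hsp90aa1 down to Dnajb1 the ranges of all neighbours overlapped. The order by variation between hearts was another: the highest heart was 10.6 and 10.3 times the lowest for Hspa1a and Hspa1b, 3.07 times for Dnajb1 and 2.28 times for Hsp90aa1, and at most 1.77 times for each of the other 6.

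Of the 10 members, 8 were lower and 2 higher in SRAKO by the sign of the log2 difference, with a median of -0.25 against 0.01 over all 10201 rows tested. Without Hspa1a and Hspa1b the median of the other 8 was -0.15, and 5 of the 10 members lay within 0.2 of no difference. Every SRAKO heart was below every WT heart for 3 members (Hspa1a, Hspa1b and Hspa1l), where 3.76% of all rows tested had this pattern. For no member, 0 of 10, was every SRAKO heart above every WT heart, against 4.28% of all rows tested. In the fit over all rows by limma with Benjamini-Hochberg adjustment, 0 members were called, and 0.0196% of all rows tested were. Before adjustment, 3 members and 3.46% of all rows tested had p under 0.05. Without WT2378 the fit called Hspa1a and Hspa1b among 7 rows in all. Because the members were picked on this contrast, these counts support nothing.

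**Figure D2:**
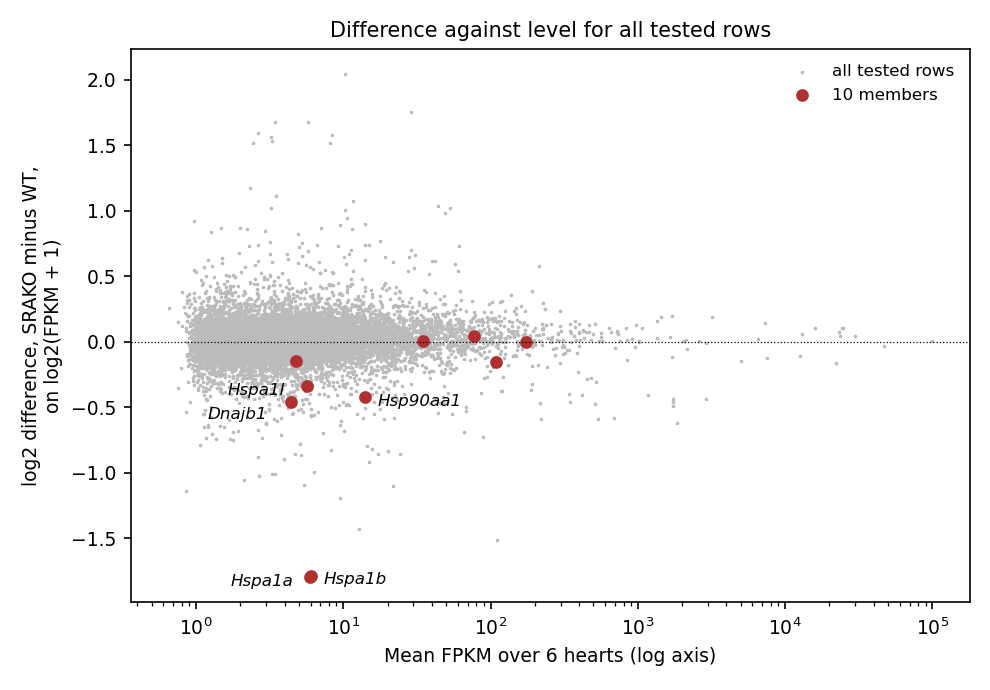
Difference between SRAKO and WT (log2 scale, SRAKO minus WT) against mean FPKM over the 6 hearts (log axis) for all 10201 rows tested (grey) and the 10 members (red). Hspa1a and Hspa1b lie lowest of all points at -1.80 and -1.79, Dnajb1, Hsp90aa1 and Hspa1l between -0.46 and -0.34, and the other 5 members close to 0.

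WT2368 was the highest heart for 6 of the 10 members (Hspa1a, Hspa1b, Hsph1, Dnajb1, Hsp90aa1 and Hspe1) and WT2379 for the other 4. Over all rows tested WT2368 was the highest heart in 10.5% and WT2379 in 26.5%. WT2368 exceeded the next heart by at least 1.5-fold for 2 members, Dnajb1 and Hsp90aa1, and in 0.637% of all rows. Among 20 further genes induced through HSF1 in other systems, WT2368 was highest for 8 and WT2379 for 6. Dnaja1, another J-domain partner of HSP70, had an FPKM of 4.26 in WT2368 and of 1.83 to 2.69 in the other hearts. Cacybp, a binding partner of the E3 ligase Siah1, had 13.2 in WT2368 and 6.51 to 9.55 elsewhere. Both were named after their values were seen.

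Cirbp, which encodes a cold-inducible RNA-binding protein, was lowest in WT2368. Its FPKM was 3.46 in WT2368, 8.95 and 8.76 in WT2379 and WT2378, and 9.95, 9.89 and 9.86 in SRAKO2365, SRAKO2371 and SRAKO2372. Only 0.5% of all rows tested had their lowest value in WT2368 at 0.5 times the next heart or less. Rbm3, the other cold-inducible protein of this kind, was also lowest in WT2368, at 6.81 against 8.29 to 10.7 elsewhere, although 44.9% of all rows tested had their lowest value there. WT2379, the other heart with high Hspa1a and Hspa1b, was above WT2378 in both genes. For Cirbp every SRAKO heart was above every WT heart, a pattern of 4.28% of all rows tested. Cirbp and Rbm3 were chosen after their values were seen, and the cause of their levels was not tested.

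WT2368 also stood apart in measures outside the heat shock genes. Rn7sk, a small nuclear RNA without a poly(A) tail that oligo(dT) selection should leave out, had an FPKM of 242 in WT2368, 114 in SRAKO2371 and 2.12 to 15.1 in the other hearts. Rpph1 and Rmrp, further RNAs of this kind, were highest in the same 2 hearts, Rpph1 at 54.1 and 24.5 and Rmrp at 7.21 and 5.59. The row of the mitochondrial genes mt-Atp8, mt-Atp6 and mt-Co3 (mt-Atp8;mt-Atp6;mt-Co3), which encode parts of the respiratory chain and ATP synthase, had 34850 in WT2368 and 18226 to 20823 in the other 5. SRAKO2371 had 3.25 for Dnajb1 and 9.89 for Cirbp, between the other SRAKO hearts, and 13.4 for Hsp90aa1, the highest SRAKO value and below WT2379. In WT2379, where Hspa1a and Hspa1b were also high, Rn7sk was 14.6. The part of these signals in the levels of WT2368 was not tested. Without both WT2368 and SRAKO2371, the log2 difference was -1.54 for Hspa1a, -1.35 for Hspa1b, -0.26 for Hsp90aa1 and -0.05 for Dnajb1, an alternative chosen after seeing the data.

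**Figure D3:**
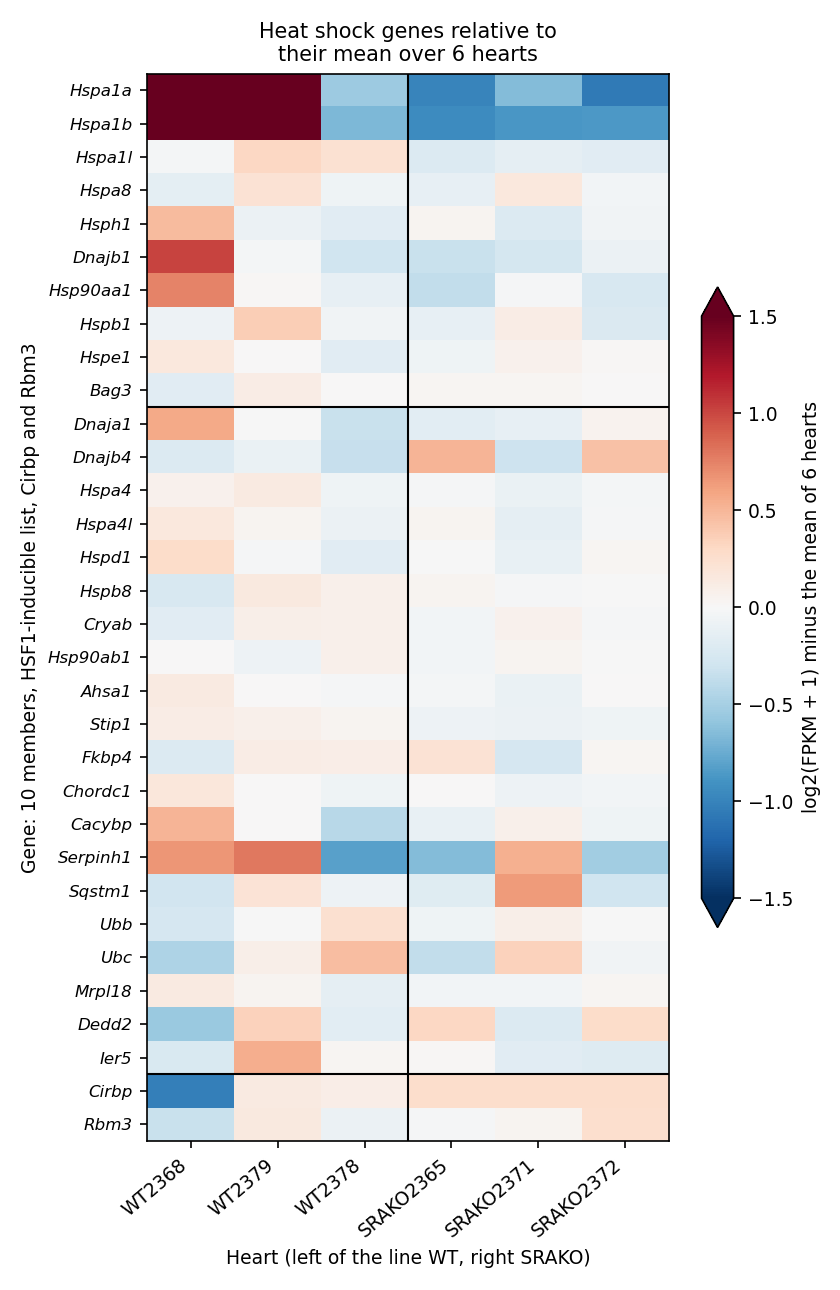
Colour gives log2(FPKM + 1) of each gene in each heart minus its mean over the 6 hearts, for the 10 members (top), 20 further HSF1-inducible genes (middle) and Cirbp and Rbm3 (bottom), with WT hearts left of the vertical line. The scale stops at 1.5 either way; Hspa1a and Hspa1b pass it in WT2368 and WT2379, Dnajb1, Hsp90aa1, Hsph1 and Dnaja1 are highest in WT2368, and Cirbp is lowest there.

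Apart from Hspa1b, which can share reads with it, no tested row with a symbol lay near Hspa1a by the measure used here. Likeness was measured as the root mean square difference, over the 6 hearts, between values of log2(FPKM + 1) centred on each gene's mean. It counts the size of changes as well as their shape, so a row of the same shape with smaller changes lies apart. Hspa1b differed from Hspa1a by 0.14, where Hspa1a itself spread by 1.16 around its own mean. The next rows were at 0.74 or more: Esrrb, an orphan nuclear receptor, at 0.74, Serpinh1, the collagen chaperone HSP47, at 0.77, Apc at 0.77, Sra1 at 0.78 and Pafah1b1 at 0.81. Esrrb had an FPKM of 4.33 and 4.12 in WT2368 and WT2379 and of 1.40 to 2.13 in the other 4 hearts, the same division of hearts at a smaller fold. Serpinh1 was high in these hearts as well, at 68.1 and 74.6, but also in SRAKO2371 at 62.5, against 23.8 to 29.4 in the other 3. Sra1, the gene named in SRAKO, separated by genotype instead, at 4.40, 6.31 and 4.23 in WT2368, WT2379 and WT2378 and 1.96, 1.78 and 2.05 in SRAKO2365, SRAKO2371 and SRAKO2372.

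The transcription factors did not follow Hspa1a and Hspa1b. Hsf1, the main activator of heat shock genes, had an FPKM of 13.0, 13.7 and 12.5 in WT2368, WT2379 and WT2378 and of 12.8, 12.5 and 14.1 in SRAKO2365, SRAKO2371 and SRAKO2372. Means were 13.1 ± 0.588 and 13.1 ± 0.883 (SD, n = 3 each), and HSF1 acts after changes to the protein that RNA does not show. Hsf2, a related factor, lay between 0.693 and 1.03 in the 6 hearts and was too low to be tested.

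Beyond the members, 164 pathway genes in 12 lists were examined, of which 150 were tested. Limma with Benjamini-Hochberg adjustment over all 10201 rows called 0 of them in either direction, with adjusted p = 0.999 at the smallest. At an unadjusted p under 0.05 there were 3, 2.0% of those tested against 3.46% of all rows. They were Fkbp5, Atf3 and Txnrd1. Fkbp5, an HSP90 co-chaperone of steroid receptors, had 9.58 ± 1.15 in WT hearts against 13.5 ± 3.29 in SRAKO hearts (SD, n = 3 each). Atf3, a stress-induced transcription factor, had 1.69, 8.65 and 4.50 in WT2368, WT2379 and WT2378 and 1.54, 2.30 and 1.08 in SRAKO2365, SRAKO2371 and SRAKO2372, so it was high in WT2379 but not in WT2368. Txnrd1, a thioredoxin reductase, had 5.81 ± 0.870 and 4.61 ± 0.270.

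Genes that work with the members differed little between the groups at the median of each list. Of 8 other HSP70 family genes 7 were lower in SRAKO by sign, with a median log2 difference of -0.08; mitochondrial Hspa9, the most abundant, had means of 102 ± 4.69 and 101 ± 4.66 (SD, n = 3 each). Of 24 J-domain genes tested 13 were lower and 11 higher (median -0.02), among them Dnajb4 at 2.62 ± 0.306 and 4.01 ± 1.42. Of 20 HSP90 relatives and co-chaperones 9 were lower and 11 higher (median 0.01), and Stip1, which links HSP70 to HSP90, had 48.6 ± 1.24 and 43.8 ± 0.332. Among 6 small heat shock genes tested, which include the cardiac protein Hspb7 at 979 ± 149 and 942 ± 36.9, 2 were lower and 4 higher (median 0.01). Nucleotide exchange and quality control genes had 4 of 11 lower (median 0.10), and mitochondrial chaperones and proteases 4 of 10 (median 0.01), with Hspd1, the partner of Hspe1, at 53.6 ± 8.61 and 51.1 ± 2.71.

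The 20 HSF1-inducible genes outside the members had 14 lower and 6 higher in SRAKO by sign, with a median of -0.06 and 0 called. Endoplasmic reticulum chaperones had 15 of 18 lower, with a median of -0.05. Cytosolic chaperonin and prefoldin subunits had 5 of 12 lower (median 0.04), heat shock factors and their regulators 1 of 4 (median 0.02), immediate early genes 12 of 21 (median -0.02) and other inducible stress genes 6 of 13 (median 0.07). The medians of all 12 lists lay between -0.08 and 0.10, against 0.01 over all rows and -0.25 over the members. The median kept its sign against 0 in every setting run for 3 of the 12 lists and turned in at least 1 setting for the other 9. The 3 were HSF1-inducible genes and endoplasmic reticulum chaperones, lower, and chaperonin and prefoldin subunits, higher. The median over all rows moved with the setting as well. Without WT2368 these 3 lists had medians of -0.025, -0.128 and 0.027, in that order, against -0.036 over all rows. The HSF1-inducible list was thus not below all rows there.

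**Figure D4:**
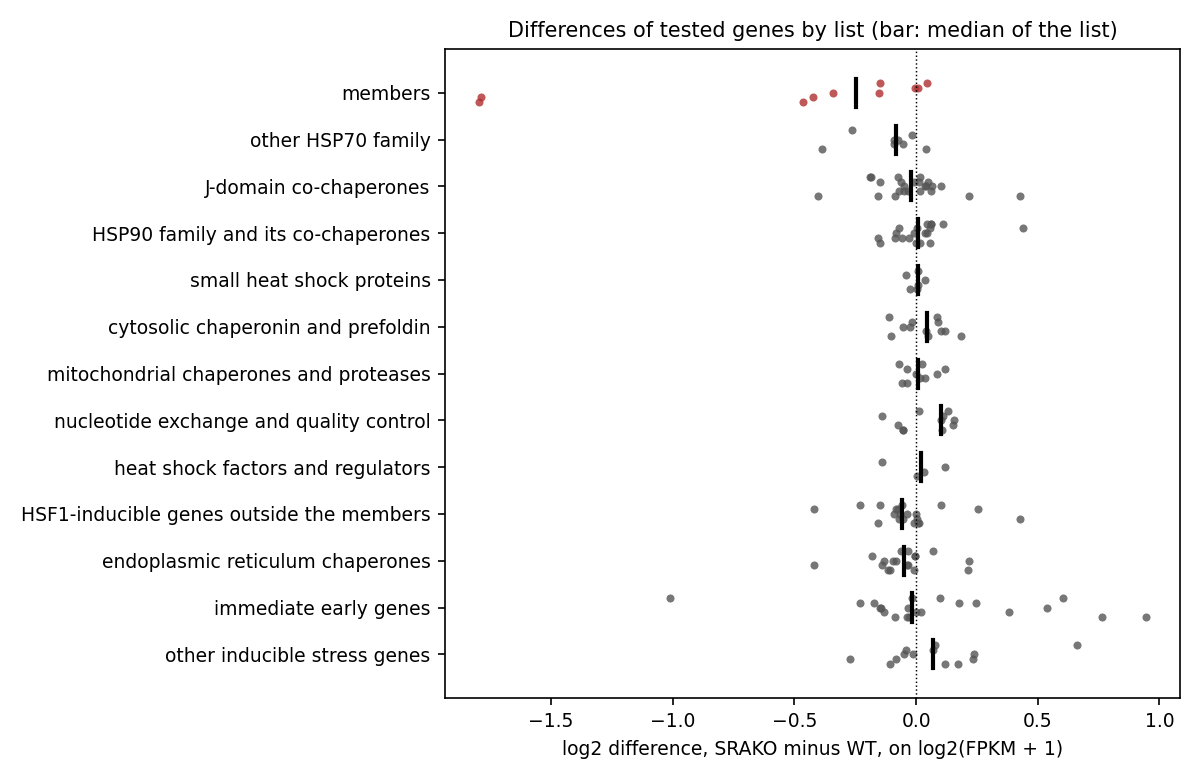
Each point is the log2 difference (SRAKO minus WT, on log2(FPKM + 1)) of 1 tested gene, by list, with a bar at the median of the list and a dotted line at 0. The members (red, top) have their median at -0.25 and the 12 other lists between -0.08 and 0.10.

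Markers of cardiomyocytes, most of them not particular to the ventricle, summed to an FPKM of 18252 to 19709 in WT and of 17486 to 20776 in SRAKO. All 9 were tested, as the labelled tissue should have, and the 4 liver markers each stayed under 1. In whole tissue, fewer cells of a type and less RNA per cell cannot be told apart. Atrial markers summed to 8454 in WT2379 and to 2497 to 3757 in the other hearts, and WT2368, the other heart with high Hspa1a, had the lowest of these sums. Nppa alone made up 6576 of the sum in WT2379 and 1651 in WT2368. Of the other atrial markers, Myl7, Myl4, Sln, Bmp10 and Kcnj3 were also highest in WT2379, and Kcnj5 in WT2368. Neutrophil markers were at 1.28 to 10.7 in WT and 3.30 to 53.4 in SRAKO, and adipocyte markers at 29.5 to 41.1 and 27.4 to 119, the highest in SRAKO2371. Sums for macrophages were 172 to 206 in WT and 207 to 227 in SRAKO, for endothelium 156 to 173 and 151 to 169, and for fibroblasts 136 to 162 and 155 to 157. Smooth muscle and pericyte markers summed to 269 to 344 and 333 to 337, red blood cell markers to 1397 to 2096 and 1070 to 2425, and skeletal muscle markers to 711 to 982 and 688 to 825. The skeletal muscle sum was nearly all Ckm (619 to 836 over the 6 hearts) and Acta1 (44.9 to 145), which heart muscle also expresses. Of its other markers found, Myh1 was listed at 0 in 5 of 6 hearts, Mylpf was at most 0.572 and Tnnt3 at most 2.04. Their part in the levels of the heat shock genes was not tested.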

How the data were processed

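The authors deposited 1 table of FPKM values per gene for the 6 hearts; an FPKM is scaled by transcript length and library size and is not a count. The tools were HISAT2 2.0.4, StringTie 1.3.4d, cutadapt 1.9 and edgeR, the last with no version, per the submitters' processing notes. Those notes give hg38, a human build, as the genome. The identifiers are of mouse genes, and 99.6% of its 81263 transcript identifiers matched GENCODE M21 on GRCm38, from which positions come. Per the labels' protocols, libraries were made with oligo(dT) beads. Strand is not given in the sources used here.

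Groups came from the sample titles. Where a gene had several rows, that of highest mean FPKM was used. The rows that reached an FPKM of 1 in 3 or more of the 6 hearts, 10201 in all, were fitted by genotype on log2(FPKM + 1) with limma 3.58.1 in R 4.3.3 (variance trend, two-sided moderated test), with Benjamini-Hochberg adjustment and a threshold of 0.05. The fit was tested on simulated data. Promoters were searched in the RefSeq table, and transcripts of the HSP70 genes were aligned globally with Biopython 1.88.

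The members and the gene lists were chosen with earlier results of these data known. Genes named are the members, Sra1, Hsf1 and Hsf2, the genes of each list with the smallest p and the highest mean (some of them named), and the 5 rows most like Hspa1a; others are said to be chosen after their values were seen, as were Rn7sk, Rpph1, Rmrp, Hsp25-ps1 and the mitochondrial row. In 11 lists of cell type markers FPKM was summed. Alternatives were other pseudocounts, filters, scalings, variance settings and array weights, and each heart left out. A comparison of protein sequences was planned and not run.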

Additional observations from a re-analysis of the deposited data

How the results depend on the processing

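Over all rows, 2 were called. The count was 1 with a pseudocount of 0.1, 0 with no filter, 1 with a filter at an FPKM of 5, and 0 without both WT2368 and SRAKO2371 (chosen after seeing the data). It ran from 0 to 7 with 1 heart left out, with 0 without WT2368 or SRAKO2365, 6 without WT2379, 7 without WT2378 and 1 without SRAKO2371 or SRAKO2372. The cause was not tested. The count of members called, 0, ran from 0 to 2 with 1 heart left out: it was 2 (Hspa1a and Hspa1b) without WT2378 and 0 in every other setting run. The members' median of -0.25 lay between -0.30 and -0.12 with 1 heart left out. It was -0.08 with the filter at an FPKM of 5 and between -0.28 and -0.21 in the other settings. Hspa1a, Hspa1b, Hsph1 and Dnajb1 did not pass that filter. Of 746 recomputed differences of single genes, 739 moved by less than the spread between hearts, and 0 list genes were called in any setting. Median-ratio scaling divided FPKM by 0.913 (WT2368) to 1.05 (WT2379). Neither it nor quantile normalization moved the median of all rows by as much as 0.1. No paired analysis was possible because the numbers in the sample titles are not shared between the groups. Each member had 1 row, so summing rows changed nothing. The number of hearts, 3 a group, limits what could be called, and depth is known only through the commonest product of FPKM and length.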

Other observations

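The single-heart shape of Dnajb1 was shared by genes outside the heat shock response. By the same measure of likeness, the rows closest to Dnajb1, all chosen after their values were seen, included Nek7, a mitotic kinase that also takes part in the inflammasome, at 0.15, and Gimap4, a GTPase of lymphocytes, at 0.16, ahead of Hsp90aa1 at 0.18. Nek7 had an FPKM of 5.57 in WT2368 and of 0.934 to 1.57 in the other hearts. Gimap4 had 13.0 in WT2368 and 4.90 to 6.75 elsewhere. The abundant mitochondrial row mt-Atp8;mt-Atp6;mt-Co3 was also among the 15 rows nearest to Dnajb1, at 0.22. Dnajc5, a J-domain protein of secretory vesicles, likewise chosen, was instead high in WT2379 alone, at 8.72 against 2.51 to 2.89 in the other 5 hearts.

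Hspa2, the HSP70 best known for its part in sperm formation, was low in a single heart. Its FPKM was 0.334 in SRAKO2371 and 2.05 to 2.99 in the other 5 hearts. This was also noticed after the values were seen.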
